A study of Mus musculus with 8 samples.

Results

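Platelet-derived growth factors (PDGFs) and fibroblast growth factors (FGFs), with the receptor tyrosine kinases that bind them, were followed in immortalized mouse embryonic fibroblasts (MEFs) through 10 genes chosen by symbol: the PDGF receptors Pdgfra and Pdgfrb, the PDGF ligands Pdgfa, Pdgfb and Pdgfc, the FGF receptors Fgfr1, Fgfr2 and Fgfr3, and the FGF ligands Fgf2 and Fgf7. These are 10 of the 55401 genes listed, and all 10 were among the 15461 genes with enough reads to be tested. RNA was sequenced from 8 MEF lines, 4 SLMAP3-/- and 4 WT, with 1 library per line and each line from its own E14.5 embryo of strain B6C3F1. The SLMAP3-/- embryos lacked exon 3 of Slmap, removed with a Cre recombinase under the CMV promoter, which is active in most cell types. Lines of both genotypes had been immortalized with SV40 large T antigen after passage 2 and were grown in high-glucose DMEM with 10% fetal bovine serum, which itself carries growth factors. The comparison asks whether loss of SLMAP3 goes with another RNA level of these genes.

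PDGF ligands are dimers of A, B, C or D chains. The A and C chains act mainly through PDGFRα and the B chain through both receptors, and fibroblasts carry both. FGF ligands bind FGFR1 to FGFR4 together with heparan sulphate. FGF7 acts on the IIIb splice form of FGFR2, made mainly by epithelium, whereas FGF2 binds the IIIc forms found in mesenchyme. Gene-level counts do not separate these splice forms. Both receptor families signal through the RAS-ERK, PI3K-AKT and PLCγ routes and raise their own inhibitors, among them the Sprouty proteins.

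The 250 bases before the RefSeq start (build GRCm38.p6) are shown for 4 of the genes, to give the DNA in front of that start. Between lines Pdgfra and Fgf7 spread more widely (10.3-fold and 5.37-fold) than Fgfr2 and Pdgfc (3.67-fold and 2.43-fold). Of the 27 annotated Fgfr2 transcripts, 1 reaches far upstream of its window. No annotated exon lies in these 4 windows. Capitals mark the motif letters found on either strand, out of TATAAA (present in 12.4% of 32851 promoter windows of the table), GGGCGG (32.7%), CCAAT (33.8%), TGAGTCA or TGACTCA (4.46%) and GGAATG (12.6%).
Pdgfra, chr5:75152001-75152250, plus strand: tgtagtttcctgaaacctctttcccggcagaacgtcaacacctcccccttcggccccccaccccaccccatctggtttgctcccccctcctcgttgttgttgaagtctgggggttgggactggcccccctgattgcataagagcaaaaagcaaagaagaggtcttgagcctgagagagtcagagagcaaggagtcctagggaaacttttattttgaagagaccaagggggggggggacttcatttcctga
Fgfr2, chr7:130266809-130267058, minus strand: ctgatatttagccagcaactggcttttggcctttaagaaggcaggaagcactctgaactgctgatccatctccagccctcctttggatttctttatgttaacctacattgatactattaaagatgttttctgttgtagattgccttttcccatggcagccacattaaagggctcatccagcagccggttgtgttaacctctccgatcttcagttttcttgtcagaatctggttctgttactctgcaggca
Pdgfc, chr3:81036166-81036415, plus strand: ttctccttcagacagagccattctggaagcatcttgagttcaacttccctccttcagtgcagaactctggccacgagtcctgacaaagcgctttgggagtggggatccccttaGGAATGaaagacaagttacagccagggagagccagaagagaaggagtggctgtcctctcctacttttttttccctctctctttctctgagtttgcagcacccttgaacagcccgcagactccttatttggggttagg
Fgf7, chr2:126034408-126034657, plus strand: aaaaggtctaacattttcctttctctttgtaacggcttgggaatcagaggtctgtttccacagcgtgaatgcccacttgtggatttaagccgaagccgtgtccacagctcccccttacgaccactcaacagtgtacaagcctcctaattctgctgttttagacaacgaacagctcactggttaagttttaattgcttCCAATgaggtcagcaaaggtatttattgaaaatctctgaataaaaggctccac
The Fgf7 window held the CCAAT letters and the Pdgfc window GGAATG, the core letters of sites bound by TEAD factors. None of the letters searched was in the Pdgfra and Fgfr2 windows. The GC content was 54.4% for Pdgfra, 44% for Fgfr2, 50.8% for Pdgfc and 43.6% for Fgf7.

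On GRCm38 (GENCODE M21) Pdgfra spans chr5:75152292-75198215 and Pdgfa chr5:138976014-138997370, and Fgfr3 lies on the same chromosome at chr5:33721674-33737068. Pdgfrb lies on chromosome 18, Pdgfb at chr15:79995874-80014977, and Pdgfc and Fgf2 on chromosome 3 at chr3:81036416-81214040 and chr3:37348346-37410108. Fgfr1 spans chr8:25513654-25575718, Fgfr2 chr7:130162451-133123350 and Fgf7 chr2:126034658-126091185. The counts are of exons, summed over the transcripts of a gene.

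The libraries held between 49878808 and 63322675 estimated counts, and each of the 10 genes had at least 202 of them in every line. Levels are given as CPM, read counts scaled to a common library size by the TMM method. The line labels held for the targeted gene: Slmap was at 32.7 to 44.3 CPM in the SLMAP3-/- lines and at 124 to 143 CPM in the WT lines. Its log2 fold change was -1.84 (SE 0.11, edgeR quasi-likelihood test, adjusted p = 0.00119), and it was the single gene called, 0.00647% of those tested. All 12 fibroblast markers had a mean of at least 1 CPM. Their summed level was 16869 to 22656 CPM in SLMAP3-/- and 20068 to 25052 CPM in WT lines. Of the 8 markers of pericytes and smooth muscle, which also express Pdgfrb, 3 reached 1 CPM and Rgs5, Kcnj8, Abcc9, Des and Myh11 did not. That list summed to 367 to 480 CPM in SLMAP3-/- and 439 to 709 CPM in WT lines. The endothelial list reached 1 CPM for 2 of 8 genes, with Cldn5 at 0 in all lines, and summed to 15.3 to 22.8 CPM in SLMAP3-/- and 9.43 to 17.7 CPM in WT lines. Epithelial, haematopoietic and skeletal muscle markers reached 1 CPM for 1 gene of 8 each and neural or glial markers for 2 of 8. In skeletal muscle the defining gene Myod1 was at 0. No marker was called between genotypes, and in RNA from a whole culture fewer cells of a kind and less RNA per cell cannot be told apart.

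None of the 10 genes was called between SLMAP3-/- and WT lines at an adjusted p under 0.05, and none had an unadjusted p under 0.05, a mark that 1.81% of the tested genes passed. In no member did all lines of a genotype lie on one side of the other, as they did for 1.25% of tested genes. The log2 fold change (SLMAP3-/- over WT) was positive for 5 members and negative for 5, with a median of 0.023 against -0.0014 over all tested genes. The lines themselves differed widely in these genes. The biological coefficient of variation, which edgeR estimates within genotypes, had a median of 0.371 over the 10 genes and 0.237 over all tested genes. The 95% interval of each gene gives the range of changes that these 8 lines allow.

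**Figure D1:**
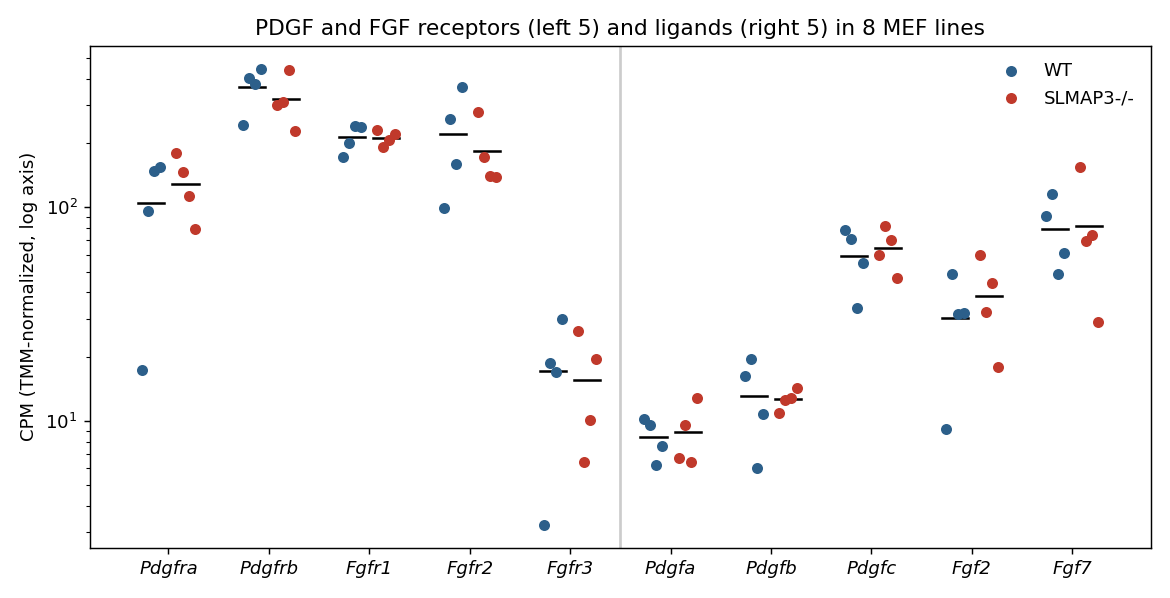
Level of each gene in CPM (log axis) in the 4 WT lines (blue) and the 4 SLMAP3-/- lines (red), in replicate order from left to right, with the mean of each genotype as a black bar. The genotypes overlap for all 10 genes; 1 WT line lies at 17.4 CPM for Pdgfra, 3.26 CPM for Fgfr3 and 9.18 CPM for Fgf2.

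Pdgfra encodes PDGFRα, the receptor for the A and C chains and a common marker of fibroblasts. Its level in WT replicates 1 to 4 was 17.4, 96.0, 149 and 154 CPM. In SLMAP3-/- replicates 1 to 4 it was 179, 146, 113 and 79.0 CPM. WT replicate 1 stood far below the other 7 lines, and the highest line held 10.3 times the level of the lowest. The mean was 129 ± 42.9 CPM (SD, n = 4) in SLMAP3-/- and 104 ± 63.5 CPM in WT. The log2 fold change of 0.31 (SE 0.57, 95% interval -0.98 to 1.602) was within the spread between lines (exact two-sided permutation test, p = 0.629, where 0.0286 is the smallest p that 4 against 4 lines allow). Without WT replicate 1 it was -0.039, so the higher mean in SLMAP3-/- lines rested on that line. WT replicate 1 was the most deeply sequenced library, and its fibroblast markers summed to 20539 CPM, inside the range of the other lines. Its skeletal muscle and endothelial marker sums, 3.63 and 9.43 CPM, were the lowest of the 8 lines. Its epithelial and its neural or glial sums, 28.2 and 27.8 CPM, were each the second highest. A part of any of these in the low level of Pdgfra was not tested.

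Pdgfrb encodes PDGFRβ, the main receptor of the B chain. The WT replicates 1 to 4 had 242, 401, 379 and 445 CPM, and SLMAP3-/- replicates 1 to 4 had 299.5, 311, 441 and 226 CPM. It had the highest mean CPM of the 10 genes and spread over a 1.97-fold range, with WT replicate 1 and SLMAP3-/- replicate 4 the lowest. The means were 319.6 ± 89.3 CPM in SLMAP3-/- and 367 ± 87.8 CPM in WT (n = 4 each). The log2 fold change of -0.20 (SE 0.24, 95% interval -0.74 to 0.35) did not pass the test (exact permutation p = 0.486). Its interval corresponds to 0.597 to 1.27 times the WT level.

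The balance of the 2 PDGF receptors within a line varied more than the level of Pdgfrb did. The CPM of Pdgfra over that of Pdgfrb was 0.0719, 0.240, 0.392 and 0.347 in WT replicates 1 to 4. It was 0.596, 0.469, 0.256 and 0.349 in SLMAP3-/- replicates 1 to 4. Pdgfrb had the higher CPM in all 8 lines. On the log2 scale the ratio was -1.33 ± 0.53 in SLMAP3-/- and -2.18 ± 1.12 in WT (SD, n = 4), a difference of 0.85 that did not pass the test (exact permutation p = 0.2). It was 0.32 without WT replicate 1 and 1.13 without WT replicate 3. CPM does not allow for transcript length. Divided by the median length of coding transcripts, the ratio ran from 0.135 in WT replicate 1 to 1.12 in SLMAP3-/- replicate 1. SLMAP3-/- replicate 1 was then the only line with Pdgfra above Pdgfrb. This too depends on the length used: the medians are 2876 bases for Pdgfra and 5415 for Pdgfrb, and the longest transcripts 6834 and 5423. With the longest transcript this ratio was not computed in each line.

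Among the 3 PDGF ligands followed, Pdgfc was the most abundant in CPM. It encodes a chain secreted in a latent form that proteases cut, and it had 77.8, 70.9, 33.6 and 54.7 CPM in WT replicates 1 to 4. SLMAP3-/- replicates 1 to 4 had 60.0, 81.5, 69.9 and 46.8 CPM. WT replicate 3 was the lowest line and the highest held 2.43 times its level. The means of 64.5 ± 14.8 CPM in SLMAP3-/- and 59.3 ± 19.7 CPM in WT (n = 4) differed by a log2 fold change of 0.12 (SE 0.27, 95% interval -0.49 to 0.73; exact permutation p = 0.657). Pdgfd, the D chain, is in the pathway lists and is named after its values were seen. Its means were 45.8 ± 8.29 CPM in SLMAP3-/- and 50.2 ± 19.5 CPM in WT. It exceeded Pdgfc in SLMAP3-/- replicate 4 (48.8 CPM) and WT replicate 3 (44.8 CPM) and was lower in the other lines.

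Pdgfa, the A chain, was low, at 10.1, 9.60, 6.23 and 7.63 CPM in WT replicates 1 to 4 and at 6.70, 9.61, 6.41 and 12.8 CPM in SLMAP3-/- replicates 1 to 4. The range was 2.06-fold, with SLMAP3-/- replicate 4 highest. The log2 fold change was 0.080 (SE 0.27, 95% interval -0.53 to 0.69; exact permutation p = 0.8286, n = 4 per genotype). Pdgfa shares 813 exon bases with 6330403L08Rik on the opposite strand, itself at 4.16 to 6.94 CPM.

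Pdgfb, the B chain that endothelium and platelets make, was at 16.2, 19.5, 6.04 and 10.8 CPM in WT replicates 1 to 4. In SLMAP3-/- replicates 1 to 4 it was at 10.9, 12.6, 12.8 and 14.2 CPM. The SLMAP3-/- lines lay close together (SD 1.35 CPM) within the wider WT range (SD 5.93 CPM), a difference in spread that was not tested. The log2 fold change was -0.061 (SE 0.32, 95% interval -0.79 to 0.67; exact permutation p = 0.857).

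WT replicate 3 was the lowest line for all 3 PDGF ligands followed, whereas Pdgfd was lowest in WT replicate 4, at 25.3 CPM. The ratio of Pdgfc to Pdgfa in CPM ran from 3.65 in SLMAP3-/- replicate 4 to 10.9 in SLMAP3-/- replicate 3, and from 5.40 to 7.67 in WT lines. On the log2 scale it was 2.88 ± 0.70 in SLMAP3-/- and 2.77 ± 0.23 in WT (SD, n = 4), with a difference of 0.12 (exact permutation p = 0.8). This difference turned to -0.069 without SLMAP3-/- replicate 3 and was 0.46 without SLMAP3-/- replicate 4.

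Fgfr1, the FGF receptor most typical of mesenchyme, was the steadiest of the 10 genes. Its level was 171, 199.7, 239.8 and 238 CPM in WT replicates 1 to 4 and 229, 192, 206 and 219.9 CPM in SLMAP3-/- replicates 1 to 4. The highest line held 1.4003 times the level of the lowest, WT replicate 1. The means were 212 ± 16.2 CPM in SLMAP3-/- and 212 ± 32.9 CPM in WT (n = 4). With a log2 fold change of -0.0039 (SE 0.13, 95% interval -0.29 to 0.28; exact permutation p = 1), the data allow 0.818 to 1.22 times the WT level. Its coefficient of variation of 0.159 was larger than that of 22.9% of tested genes.

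Fgfr2 was at 99.3, 259, 159.8 and 365 CPM in WT replicates 1 to 4. In SLMAP3-/- replicates 1 to 4 it was at 279, 171, 140.5 and 139 CPM. The spread of 3.67-fold ran from WT replicate 1 to WT replicate 4, and the SLMAP3-/- lines lay between them. Means of 182 ± 66.3 CPM in SLMAP3-/- and 221 ± 116 CPM in WT (n = 4) gave a log2 fold change of -0.27 (SE 0.40, 95% interval -1.18 to 0.63; exact permutation p = 0.743), which was 0.083 without WT replicate 4. In the annotation 1 of the 27 Fgfr2 transcripts reaches far upstream and shares 314 exon bases with Ctbp2, on the same strand and at 58.2 to 80.9 CPM. How Salmon divided reads between them was not tested.

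Fgfr3, best known from cartilage and epithelium, was the lowest FGF receptor of the 3. WT replicates 1 to 4 had 3.26, 18.6, 16.97 and 29.9 CPM, and SLMAP3-/- replicates 1 to 4 had 26.2, 6.38, 10.1 and 19.5 CPM. WT replicate 1 and SLMAP3-/- replicate 2 were lowest, and the range was 9.19-fold. The mean was 15.6 ± 9.0005 CPM in SLMAP3-/- and 17.2 ± 10.9 CPM in WT (n = 4). Its log2 fold change of -0.14 had the widest interval of the 10 genes, -1.59 to 1.30 (SE 0.63; exact permutation p = 0.943). In WT replicate 1, with the lowest Fgfr3, the epithelial markers summed to 28.2 CPM, and in WT replicate 4, with the highest, to 15.7 CPM. SLMAP3-/- replicate 2 had the highest sum of the 8 lines, 45.0 CPM, and WT replicate 3 the lowest, 9.76 CPM. Only 1 of the 8 epithelial markers reached a mean of 1 CPM, and a relation to Fgfr3 was not tested.

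The ratio of Fgfr1 to Fgfr2 in CPM ran from 0.652 in WT replicate 4 to 1.73 in WT replicate 1. Fgfr2 had the higher CPM in WT replicates 2 and 4 and in SLMAP3-/- replicate 1, and Fgfr1 in the other lines. The log2 ratio was 0.27 ± 0.43 in SLMAP3-/- and 0.095 ± 0.69 in WT (SD, n = 4), and the difference of 0.18 did not pass the test (exact permutation p = 0.714; after Benjamini-Hochberg adjustment over the 3 ratios tested the lowest permutation p was 0.6). It turned to -0.060 without WT replicate 4 and was 0.41 without WT replicate 1. With CPM divided by the median length of coding transcripts, the ratio ran from 0.395 in WT replicate 4 to 1.05 in WT replicate 1. WT replicate 1 was then the only line with Fgfr1 above Fgfr2. This depends on the length used: the medians are 3789 bases for Fgfr1 and 2296 for Fgfr2, and the longest transcripts 5041 and 4429. The ratio in each line was not computed with the longest transcript.

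Fgf2, a ligand that leaves cells without a signal peptide, was at 9.18, 48.9, 31.6 and 32.05 CPM in WT replicates 1 to 4. SLMAP3-/- replicates 1 to 4 had 59.6, 32.3, 44.4 and 17.95 CPM. WT replicate 1 was again the lowest, 6.496-fold under SLMAP3-/- replicate 1. The mean of 38.6 ± 17.7 CPM in SLMAP3-/- against 30.4 ± 16.3 CPM in WT (n = 4) gave a log2 fold change of 0.34 (SE 0.50, 95% interval -0.79 to 1.48; exact permutation p = 0.543), and of 0.046 without WT replicate 1. Its exons overlap those of Nudt6 on the opposite strand over 640 bases, and Nudt6 was at 1.85 to 3.47 CPM.

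Fgf7, the keratinocyte growth factor that mesenchyme sends to epithelium, was at 90.8, 116, 48.7 and 60.7 CPM in WT replicates 1 to 4. In SLMAP3-/- replicates 1 to 4 it was at 155, 69.2, 73.9 and 28.9 CPM. SLMAP3-/- replicates 1 and 4 held the highest and the lowest level of all 8 lines, 5.37-fold apart. Means of 81.8 ± 52.9 CPM in SLMAP3-/- and 79.0 ± 30.2 CPM in WT (n = 4) gave a log2 fold change of 0.050 (SE 0.47, 95% interval -1.02 to 1.12; exact permutation p = 0.886). It was -0.46 without SLMAP3-/- replicate 1 and 0.33 without SLMAP3-/- replicate 4.

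**Figure D2:**
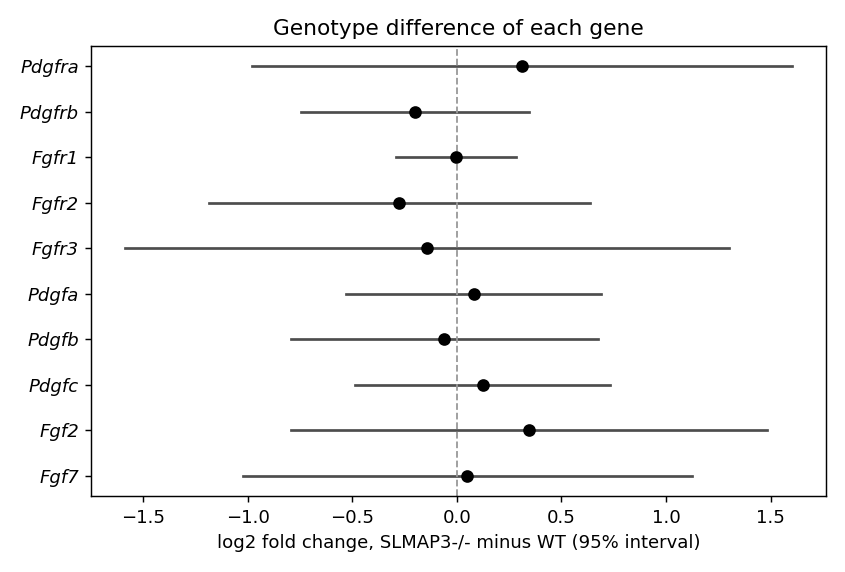
Log2 fold change of each gene, SLMAP3-/- over WT (points), with its 95% interval from the edgeR fit (lines) and a dashed line at 0. Every interval holds 0, and that of Fgfr1, -0.29 to 0.28, is the narrowest.

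Seen by line, WT replicate 1 was the lowest for 5 of the 10 genes: Pdgfra and the 3 FGF receptors among the receptors, and Fgf2 among the ligands. How often it was the lowest line over all tested genes was not counted. On the first principal component, the main axis of difference between lines over all tested genes, it lay at 65.0. The other lines lay between -52.2 and 24.0. It was not low throughout, since its Pdgfc, at 77.8 CPM, was second of the 8 lines, and its Pdgfa and Pdgfb also ranked second. WT replicate 3 was the lowest for Pdgfa, Pdgfb and Pdgfc and SLMAP3-/- replicate 4 for Pdgfrb and Fgf7. SLMAP3-/- replicate 1 and WT replicate 4 were the highest for 3 genes each.

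**Figure D3:**
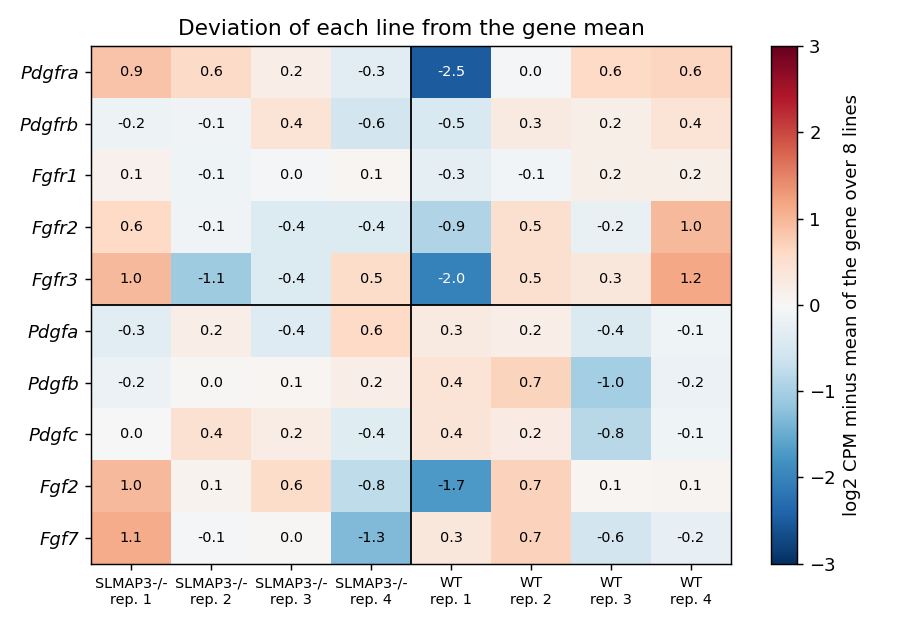
Log2 CPM of each gene in each line minus its mean over the 8 lines, with receptors above the horizontal line, ligands below it, SLMAP3-/- lines on the left and WT lines on the right. Blue cells are below the gene's mean and red ones above it; WT replicate 1 has the darkest blue for Pdgfra, Fgfr3 and Fgf2.

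**Figure D4:**
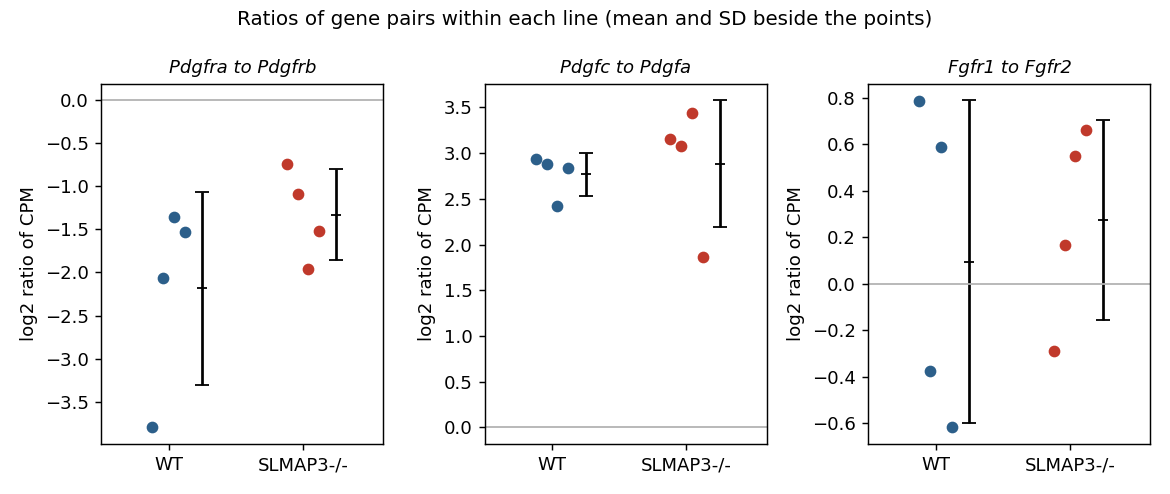
Log2 ratio of the CPM of paired genes in each WT line (blue) and SLMAP3-/- line (red), with the mean and SD of each genotype beside the points. In CPM Pdgfrb exceeded Pdgfra and Pdgfc exceeded Pdgfa in all 8 lines. Fgfr1 to Fgfr2 fell on both sides of 0 in both genotypes. Transcript length is not allowed for.

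To compare levels between genes, CPM was divided by the median length of each gene's protein-coding transcripts in kilobases. By the geometric mean over 8 lines, in CPM per kilobase, the order was Fgfr2 (80.8), Pdgfrb (61.5), Fgf2 (56.5), Fgfr1 (55.6), Pdgfra (34.3), Fgf7 (29.0), Pdgfb (18.8), Pdgfc (16.96), Pdgfa (5.77) and Fgfr3 (5.08). Of the 9 pairs of neighbours in that order, Fgfr1 over Pdgfra (higher in 6 of 8 lines, exact sign-flip test, p = 0.03125) and Pdgfc over Pdgfa (8 of 8 lines, p = 0.0078125, the smallest that 8 lines allow) had an unadjusted p under 0.05. The other 7 pairs did not (exact p from 0.0547 to 0.922). After Benjamini-Hochberg adjustment over the 9 pairs the sign-flip p was 0.141 for Fgfr1 over Pdgfra and 0.0703 for Pdgfc over Pdgfa, so no neighbours were told apart after adjustment. The middle of the order depended on the length used: Fgf2 has coding transcripts from 462 to 5973 bases and fell from rank 3 to rank 7 with the longest transcript. Pdgfrb and Fgfr2 held the top and Pdgfa and Fgfr3 the bottom with either length.

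Whether genes moved together from line to line was asked for 7 pairs, 5 of a ligand and a receptor and 2 of receptors. Over the 8 lines Pearson's r was 0.56 for Pdgfra and Pdgfrb (permutation p = 0.129) and 0.59 for Fgfr1 and Fgfr2 (p = 0.123). It was -0.52 for Pdgfra and Pdgfa (permutation p = 0.176), -0.34 for Pdgfra and Pdgfc (p = 0.373) and -0.26 for Pdgfrb and Pdgfb (p = 0.561). For the FGF pairs it was 0.51 for Fgfr1 and Fgf2 (permutation p = 0.196) and 0.34 for Fgfr2 and Fgf7 (p = 0.415). In the same order Spearman's rho was 0.43 (permutation p = 0.299), 0.45 (0.267), -0.67 (0.0831), -0.33 (0.428), -0.31 (0.462), 0.095 (0.840) and 0.26 (0.536). No pair passed the test, and after Benjamini-Hochberg adjustment over the 7 pairs the lowest permutation p was 0.342 for r and 0.582 for rho. Leaving out the 2 lines farthest from the median of the first gene turned r for Pdgfra and Pdgfrb to -0.54, so that relation rested on WT replicate 1 and SLMAP3-/- replicate 4. It gave 0.54 for Fgfr1 and Fgfr2, -0.38 for Pdgfra and Pdgfa, -0.36 for Pdgfra and Pdgfc, 0.094 for Pdgfrb and Pdgfb, -0.084 for Fgfr1 and Fgf2 and 0.29 for Fgfr2 and Fgf7.

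For the 3 members with the largest range, the tested genes whose log2 CPM was most like theirs over the 8 lines were found by Pearson's r, as a description. Pdgfra was followed most closely by Pagr1b (0.99), Syf2 (0.98) and Serping1 (0.97), Fgfr3 by Rtn4rl1 (0.99), Flicr (0.98) and Tmem64 (0.98), and Fgf2 by Tmem26 (0.98), Trappc2l (0.98) and Tsen34 (0.96). Values of r above 0.9 were found for 69, 92 and 71 genes respectively. Pagr1b has a near-identical copy, Pagr1a, so its counts are uncertain.

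The other genes of both pathways were taken from 7 lists of 144 genes, of which 122 were tested. None was called (edgeR, adjusted p under 0.05, against 0.00647% of all tested genes), and 2 had an unadjusted p under 0.05, a mark that 1.81% of all tested genes passed. Their log2 fold changes were positive for 60 and negative for 62, with a median of -0.0090, against -0.0014 over all tested genes.

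Of 15 other PDGF and VEGF-type ligands and receptors, 13 were tested, with 5 positive and 8 negative and a median of -0.032. The list also holds Csf1, the macrophage growth factor, and Kitl, which are not themselves PDGF or VEGF-type ligands. The most abundant of the list were Csf1, at 297 ± 139 CPM in SLMAP3-/- and 299 ± 88.8 CPM in WT, and Vegfa, at 51.5 ± 13.4 and 52.6 ± 31.9 CPM. The 2 pathway genes under an unadjusted p of 0.05, Flt4 and Flt1, were in this list and are named after their values were seen. Flt4 (VEGFR3) had a log2 fold change of 0.74 (SE 0.29, adjusted p = 1.00, edgeR), with 24.98, 69.4, 60.2 and 53.7 CPM in SLMAP3-/- and 30.6, 40.4, 27.9 and 25.6 CPM in WT replicates 1 to 4. Flt1 (VEGFR1) had -0.89 (SE 0.37, adjusted p = 1.00, edgeR). The genotypes overlapped in both genes.

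Of the 22 other FGF ligands and receptors, 8 were tested, with 3 positive and 5 negative. Fgf10, another mesenchymal ligand of the FGFR2 IIIb form, was at 56.3 ± 32.2 CPM in SLMAP3-/- and 85.6 ± 58.4 CPM in WT (log2 fold change -0.60, SE 0.65). Fgfrl1, a receptor without a kinase domain, was at 43.9 ± 12.9 and 43.3 ± 8.44 CPM. Fgf10 was lowest in WT replicate 1, at 12.9 CPM, and highest in WT replicate 4, at 153 CPM, the same lowest and highest lines as Fgfr2. Fgfr4 stayed under 0.341 CPM in every line.

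Co-receptors and carriers, 21 of 24 tested, had 6 positive and 15 negative changes with a median of -0.070. Hspg2, the heparan sulphate proteoglycan perlecan, was at 1045 ± 79.1 CPM in SLMAP3-/- and 1105 ± 128 CPM in WT, and Sulf1, which trims heparan sulphate, at 435 ± 128 and 475 ± 129.9 CPM. The proteases that mature PDGF chains, 6 of 8 tested, had 4 positive and 2 negative changes (median 0.039). Furin was even, at 157 ± 28.8 and 154 ± 17.04 CPM, and Pcsk6 ranged from 20.7 CPM in WT replicate 1 to 245 CPM in SLMAP3-/- replicate 1.

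The receptor-proximal adaptors and enzymes were tested for all 35 genes, with 16 positive and 19 negative changes and a median of -0.011. Akt1 was at 415 ± 57.3 and 439 ± 70.04 CPM in SLMAP3-/- and WT lines and Ptpn11, the phosphatase SHP2, at 326 ± 66.8 and 358 ± 30.1 CPM. The list of feedback inhibitors, 18 of 19 tested, split 10 positive to 8 negative (median 0.022). Not every gene in this list is an inhibitor raised by the signal, as it also holds Flrt1, Flrt2, Flrt3, Ptpn1 and Ptprj. The most abundant of the list were Ptpn1, at 106 ± 9.65 and 109 ± 13.03 CPM, and Errfi1, at 112 ± 82.0 and 77.0 ± 41.5 CPM (log2 fold change 0.54, SE 0.55). The 21 responsive transcription factors and immediate early genes were tested in full, with 16 positive and 5 negative changes and a median of 0.10. Egr1 was at 223 ± 45.1 CPM in SLMAP3-/- and 163 ± 74.3 CPM in WT (log2 fold change 0.46, SE 0.30, adjusted p = 1.00, edgeR) and Jun at 173 ± 28.6 and 163 ± 66.9 CPM. None of these genes passed the test.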

How the data were processed

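Libraries were prepared from total RNA of 8 MEF lines with a stranded mRNA kit. The authors assigned reads to the GRCm38 transcriptome (GENCODE M25) with Salmon, and the deposited table holds length-scaled estimated counts per gene, not normalized between lines. Its second deposited table, the authors' own DESeq2 comparison with fold changes and p-values, was not used. Whether strand was used in counting is not given in the sources used here.

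Estimated counts were rounded and tested with edgeR 4.0.16 in R 4.3.3 (TMM, filterByExpr with a minimum count of 10, quasi-likelihood test, Benjamini-Hochberg adjustment over all 15461 genes tested). Only genotype entered the model. CPM used TMM-scaled library sizes, and log2 CPM a prior count of 2. Single values were tested by exact two-sided permutation tests. The fits were tested on simulated counts with known changes, in which edgeR and limma-voom made few false calls and DESeq2 made more. These counts were drawn with the spread that edgeR had estimated for each gene. They therefore do not show which tool errs less on the real counts. Depth was 49878808 to 63322675 estimated counts per line, so counting error was small against the spread between lines. The p-values measure the spread between lines, each from its own embryo. Transcript lengths, positions and exon overlaps came from GENCODE M21, the same build, in which all 10 gene identifiers have the same version. Promoter windows are from RefSeq, matched by symbol.

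The genes and lists were chosen with earlier results of these data known. Named genes were the 10 members, Slmap, in each list any called or non-overlapping gene and the 2 with the highest mean level, and the 3 genes most like each of the 3 members with the largest range. Alternatives were limma-voom 3.58.1, DESeq2 1.42.0, DESeq2 size factors, other filters, a replicate block, Y-linked expression as covariate, each line left out, and for the order of levels another length or the WT lines alone.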

Additional observations from a re-analysis of the deposited data

How the results depend on the processing

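None of the 10 genes and none of the pathway genes was called in any of 7 other fits or of 8 fits with a line left out, and the lowest unadjusted p of a member was 0.113 (edgeR, without SLMAP3-/- replicate 3). Over all genes 11 were called by DESeq2, and whether these calls are true was not tested here. In edgeR with the replicate number as a block 0 were called (294 at an unadjusted p under 0.05). Slmap kept a log2 fold change of -1.84 in that edgeR fit but not the call (adjusted p = 0.171). All other fits called 1. Lines with the same replicate number come from different embryos and their deviations did not pair (r from -0.16 to 0.19). WT replicate 3 was the only WT line that correlated best with its own replicate number, so the block result is given only here. SLMAP3-/- replicate 3 (MEF10A) and WT replicate 4 (MEF10B) share a number in their line names, with r = 0.13. What that number stands for is not given, and it did not enter the model. The small fold changes of the members had no stable sign: 9 of 70 values under other fits and 19 of 80 with a line left out changed sign. Pdgfb became 0.055 with limma-voom, 0.059 with the block and 0.031 with the Y-linked covariate. Fgfr1 became 0.0056 with limma-voom, 0.0029 without a filter and 0.0059 with the block. Fgfr3 became 0.076 and Fgf7 -0.10 with limma-voom, and Fgf7 -0.11 with the block. With a line left out, log2 fold changes ran from -0.039 to 0.57 for Pdgfra, -0.15 to 0.21 for Pdgfa, -0.30 to 0.19 for Pdgfb, -0.074 to 0.29 for Pdgfc, -0.089 to 0.061 for Fgfr1, -0.55 to 0.083 for Fgfr2, -0.51 to 0.27 for Fgfr3 and -0.46 to 0.33 for Fgf7. Pdgfrb and Fgf2 kept their sign in these fits and in the 7 others, but moved from -0.39 (without SLMAP3-/- replicate 3) to -0.065 (without SLMAP3-/- replicate 4) and from 0.046 (without WT replicate 1) to 0.67 (without WT replicate 2). The difference in the ratio of Pdgfc to Pdgfa ran from -0.069 to 0.46 and that of Fgfr1 to Fgfr2 from -0.060 to 0.41. In the order of levels, 2 of 10 genes kept their rank with the longest transcript and 6 of 10 in the WT lines alone. Unadjusted calls over all genes rose from 280 to 546 without WT replicate 1. The causes were not tested.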

Other observations

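Some pathway genes that the comparisons above do not name varied widely between lines. They were picked after their values were seen, and no test was made. Gpc3, a heparan sulphate proteoglycan of the cell surface, was at 0.790 CPM in WT replicate 1 and between 22.8 and 97.3 CPM in the other 7 lines. Fgf5, a ligand known from the hair cycle, was at 0.192 CPM in SLMAP3-/- replicate 4 and at 19.0 CPM in SLMAP3-/- replicate 2. Etv5, a transcription factor that FGF signalling raises, was lowest in SLMAP3-/- replicate 4, at 10.1 CPM, and between 22.7 and 67.5 CPM elsewhere. Etv4, its close relative, was lowest in the same line, at 7.34 CPM against 20.6 to 30.6 CPM in the others. WT replicate 1 was the line with the lowest Fgf2 and FGF receptors. It was the lowest line for 1 of the 18 tested genes of the feedback list and for 2 of the 21 responsive transcription factors and immediate early genes. These were Spry2, a Sprouty inhibitor, at 17.98 CPM against 20.2 to 29.3 CPM in the other lines, Egr2 at 2.56 against 3.73 to 10.4 CPM, and Fos at 7.29 against 13.5 to 23.4 CPM. WT replicate 1 was the highest line for 5 genes of the inhibitor list, Dusp5, Flrt2, Lrig1, Ptpn1 and Ptprj, none of them a Sprouty gene. In the list of transcription factors and immediate early genes it was the highest line for 2, Ets1 and Ets2. SLMAP3-/- replicate 4 was the lowest line for 5 genes of the feedback list and 4 of the other list, and the highest for 1 and 5. WT replicate 3 was the lowest for 2 and 8 and the highest for 1 and 0.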
